A study of Rattus norvegicus with 23 samples.

Results

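The heat shock proteins and their DnaJ co-chaperones were examined in the lungs of elderly rats that had inhaled a titanium dioxide (TiO2) nano-aerosol. The family was taken by gene name from the annotation of the array: every gene spot whose symbol starts with Hsp, Hsph, Dnaja, Dnajb, Dnajc, Hsf or Bag followed by its number or subclass. This gave 87 genes on 121 probes among 25597 genes with a symbol. Of these, 85 passed the filter on dim probes and were tested, among 23030 genes tested in all. They include 2 members, Dnajc5b and Dnajc6, that were not well above background on any array and are counted and plotted below but given no FC in the text. The remaining members, Hspa1b and Dnajb7, had 1 probe each, and neither probe was well above background on any of the 23 arrays, so no fold change (FC) is given for them. The rule also took 4 genes whose names resemble those of the family: Hspg2 (perlecan, a proteoglycan of basement membranes), Hspbp1 (which acts on HSP70), Hspbap1 and Hsf2bp.

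The rats were male F344, 19 months old, and breathed through the nose only, over 4 weeks with 5 days of exposure a week and 6 h a day, either the aerosol of TiO2 P25 at 10 mg/m3 (exposed) or filtered air (control). They were killed at the end of exposure (D0) or 28 days later (D28). RNA of the accessory lobe, 1 rat per single-colour array, came from 4 groups: on D0, 6 control rats and 5 exposed; on D28, 6 of each. For the exposed rats of D28 the source field names day 0, and titles and descriptions decided their group. The lobe is a mixture of cells, in which fewer cells of a type and less RNA per cell cannot be told apart.

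Heat shock proteins are molecular chaperones that hold, fold or disaggregate other proteins. Many are kept at a high level in resting cells, whereas others, such as Hspa1a, Hspa1b, Hsph1, Dnajb1 and Hspb1, are switched on when misfolded proteins release the transcription factor HSF1, which binds heat shock elements in their promoters. J-domain proteins (Dnaja, Dnajb and Dnajc) deliver clients to HSP70 and drive its ATP cycle, BAG proteins and HSP110 release its nucleotide, HSP90 matures kinases and steroid receptors, and small heat shock proteins hold unfolded clients without ATP. The members of the endoplasmic reticulum (ER), Hspa5, Hsp90b1, Dnajb9, Dnajb11 and Dnajc3, answer to the unfolded protein response instead.

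The promoters of 68 of the 87 members were found in the RefSeq table of GRCr8, and the 250 bases before the start site were searched on both strands. Members without a promoter there, and so not searched, include Dnajc22, Hspb2, Hspa12a, Hsp90aa1, Hspa1b and Hsf1. The heat shock element of 3 units, in which GAA repeats in alternating orientation with 2 bases between units (GAANNTTCNNGAA or TTCNNGAANNTTC), was present in 4 members, Hspa8, Hspd1, Hspe1 and Hsph1, which is 5.88% of members against 0.597% of 27457 promoters. Its shorter form of 2 units (GAANNTTC or TTCNNGAA), which overlaps the longer one, was present in 16 members (23.5%) against 13.2% of promoters. The ER stress element (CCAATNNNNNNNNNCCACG) was present in 3 members, Hspa5, Hsp90b1 and Dnajc3 (4.41%), against 0.076% of promoters. The probes of Hspd1 and Hspe1 lie near each other on opposite strands of chromosome 9, and the window of each held the element of 3 units 2 times. Whether these windows share bases, so that the same match is counted for both, was not checked. These matches describe the letters of the window and not the binding of a factor. The 150 bases before the start are shown for 3 heat-inducible members that hold the element of 2 units and for Hspa5 and Hsp90b1. Over 23 arrays, the deviations of these 2 from their group means had a Pearson r of 0.705 and 0.825 with those of Hsph1. Without the 2 arrays farthest from the median of Hsph1, r was 0.425 for Hspa5. For Dnajc3, Dnajb11 and Dnajb9, also of the ER, r over 23 arrays was -0.076, 0.155 and -0.533. The windows show the heat shock element of 2 units in capitals in the first 3 and the ER stress element in the last 2. They lie at chr12:10427218-10427367 on the plus strand (Hsph1), chr19:41431142-41431291 on the minus strand (Dnajb1), chr12:26432302-26432451 on the minus strand (Hspb1), chr3:38452866-38453015 on the plus strand (Hspa5) and chr7:23012294-23012443 on the minus strand (Hsp90b1).
Hsph1: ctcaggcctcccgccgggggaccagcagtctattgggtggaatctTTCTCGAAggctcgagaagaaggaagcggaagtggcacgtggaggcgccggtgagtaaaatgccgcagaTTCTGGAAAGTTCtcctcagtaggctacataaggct
Dnajb1: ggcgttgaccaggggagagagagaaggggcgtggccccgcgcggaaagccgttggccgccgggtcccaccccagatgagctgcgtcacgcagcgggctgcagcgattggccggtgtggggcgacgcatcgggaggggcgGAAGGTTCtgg
Hspb1: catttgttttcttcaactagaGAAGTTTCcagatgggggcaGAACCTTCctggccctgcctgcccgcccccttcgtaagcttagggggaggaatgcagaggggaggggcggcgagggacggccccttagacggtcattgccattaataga
Hspa5: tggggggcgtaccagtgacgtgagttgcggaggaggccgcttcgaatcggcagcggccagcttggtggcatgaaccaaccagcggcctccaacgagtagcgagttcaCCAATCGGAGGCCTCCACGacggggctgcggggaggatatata
Hsp90b1: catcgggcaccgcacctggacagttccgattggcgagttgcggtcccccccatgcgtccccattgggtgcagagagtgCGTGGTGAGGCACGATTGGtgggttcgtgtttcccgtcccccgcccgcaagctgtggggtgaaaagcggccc

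The window of Hsph1 held the element of 2 units 3 times, that of Hspb1 held it 2 times and that of Dnajb1 held it once. No match was found in the 250 bases before the listed start of Hspa1a, which is not shown.

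After TiO2, no member was a differentially expressed gene (DEG, limma with Benjamini-Hochberg adjusted p below 0.05 over all genes and FC of at least 1.5) on D0, against 1.79% of all genes tested, nor on D28, against 0.756%. Without the limit on FC, 3 of 85 members passed the adjusted p on D0 (2.86% of all genes) and 3 of 85 on D28 (1.32% of all genes). With no adjustment of p, 5 members on D0 and 9 on D28 had a p below 0.05, where the shares over all genes were 11.9% and 11%. Averaged over both days, which uses all 23 rats, 5 members passed the adjusted p (6.55% of all genes), and none had a FC of 1.5 (1.87% of all genes). These 5 were Dnajc22, which rose, and Hspb2, Hspb1, Hspa12a and Dnajb13, which fell.

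The precision of these arrays bounds what could have been missed. The 95% interval of the log2 FC lay inside 1.5-fold in either direction for 64 of 85 members on D0, against 50.4% of all genes, and for 63 of 85 on D28, against 52.6%. The median log2 FC of the members was -0.04 on D0 and -0.07 on D28, beside -0.000696 and -0.00549 for all genes. A log2 FC below 0 was found in 53 of 85 members on D0 (50.1% of all genes) and in 54 of 85 on D28 (51.1% of all genes). No member passed the test of the difference between the effects of the 2 days (0.0304% of all genes), where 2 of 85 had an unadjusted p below 0.05 (3.44% of all genes). These were Hsph1 and Dnajc5b.

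**Figure D1:**
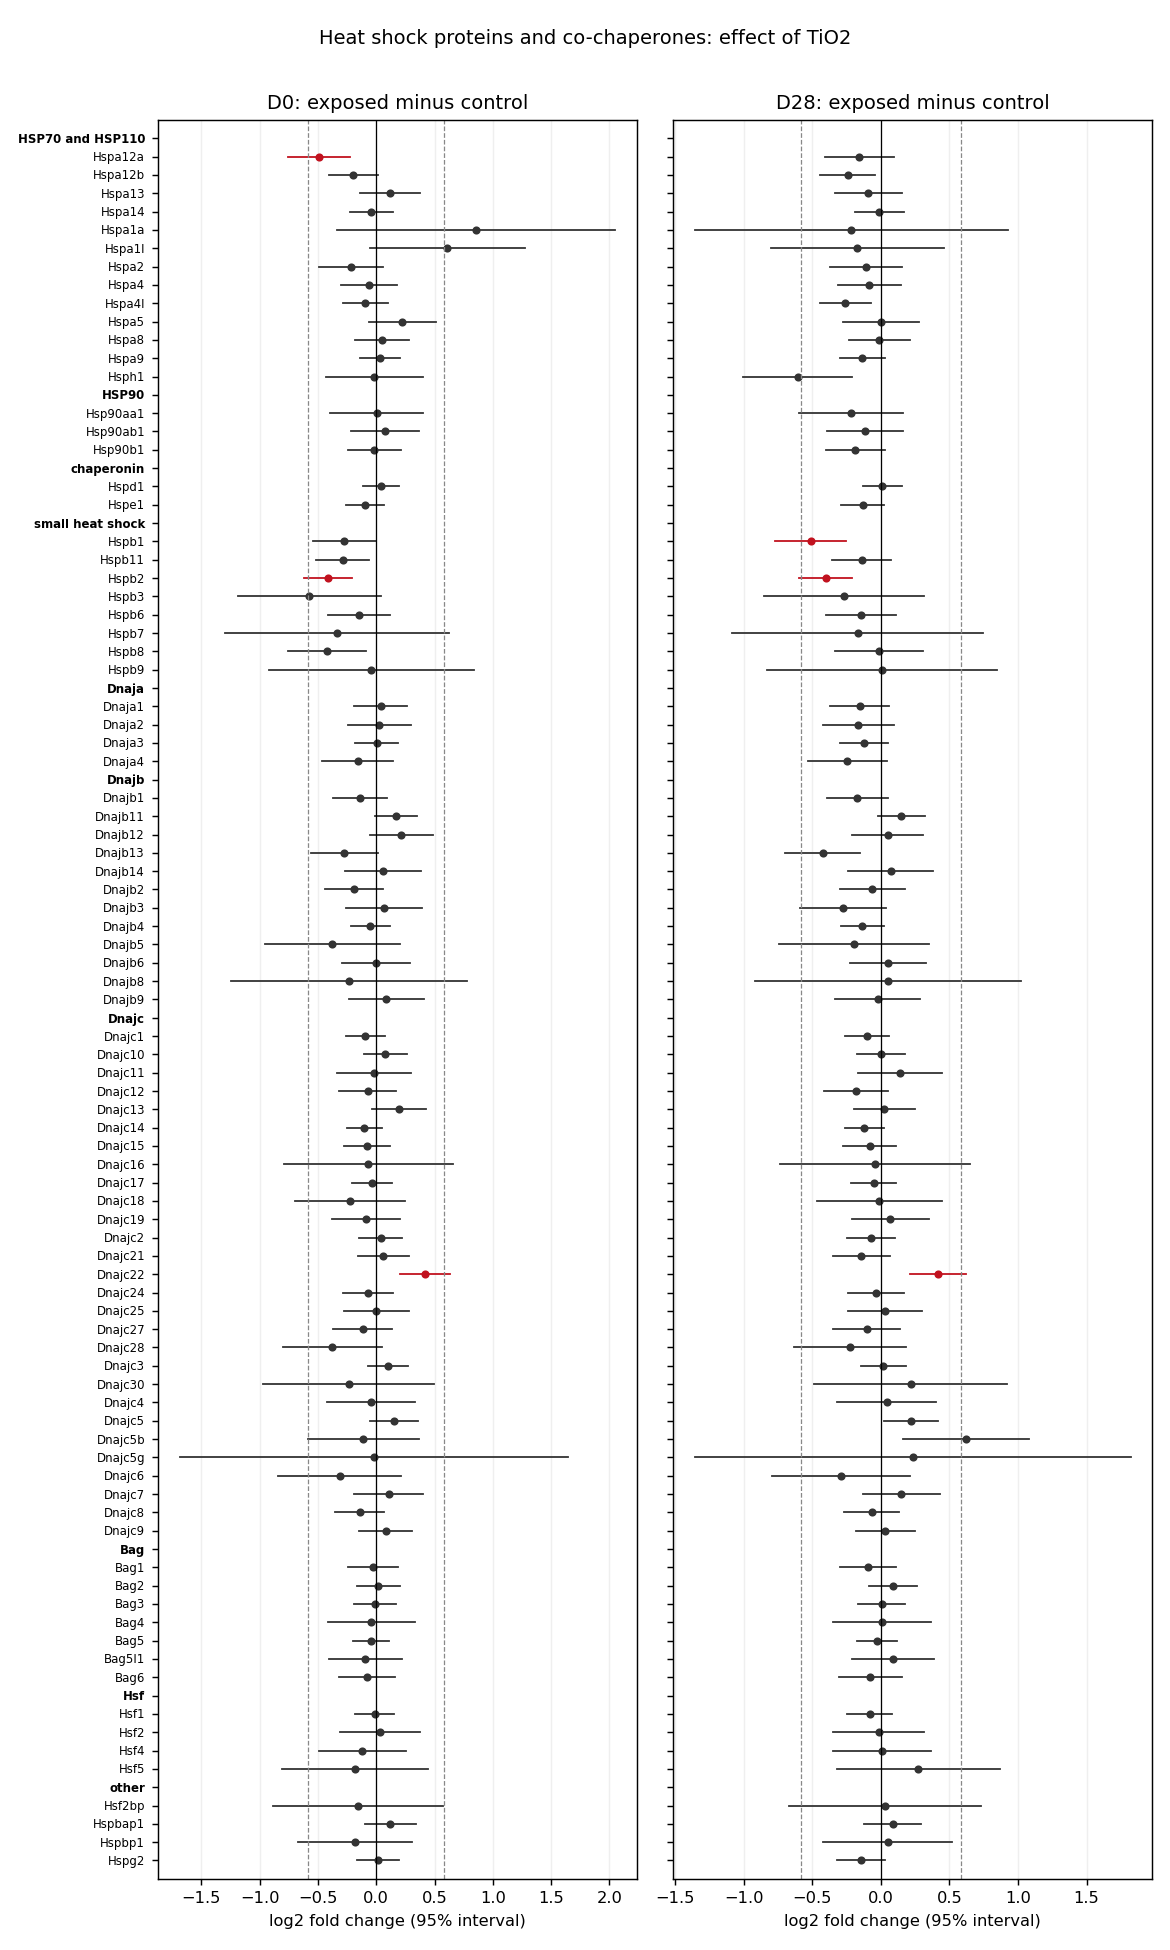
Log2 fold change of exposed against control rats for the 85 members tested, on D0 (left) and D28 (right), ordered by class. Points are the limma estimates, bars their 95% intervals, red marks an adjusted p below 0.05 and dashed lines mark 1.5-fold. Most intervals lie between the dashed lines, and the red points are Hspa12a, Hspb2 and Dnajc22 on D0 and Hspb1, Hspb2 and Dnajc22 on D28.

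The HSP70 class holds the members most used as signs of heat shock. Hspa8, the constitutive HSP70 of the cytosol, had log2 signals from 14.91 to 15.41 in control rats and of 15.13, 15.18, 15.21, 15.29 and 15.42 in exposed rats on D0. On D28 it lay from 14.61 to 15.14, with a median of 15.01, in control rats and from 14.78 to 15.15, with a median of 14.93, in exposed rats. The groups overlapped on both days, and the log2 FC was 0.05 (95% interval -0.18 to 0.28, adjusted p = 0.978) on D0 and -0.01 (-0.23 to 0.21, adjusted p = 0.990) on D28.

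Hspa5 (BiP), the HSP70 of the ER lumen, had a log2 FC of 0.22 on D0 (-0.07 to 0.51, adjusted p = 0.633) and of 0.00 on D28 (-0.28 to 0.28, adjusted p = 0.999). On D28 its exposed rats ranged from 13.13 to 14.32, and replicate 4 held the top value. Hspa9, the mitochondrial form, and Hspa4, a HSP110 that exchanges nucleotide on HSP70, had log2 FCs between -0.13 and 0.03 on both days. Of the 13 members of the class tested, 1 passed the adjusted p on D0 and none on D28. On D28, 12 of 13 had a log2 FC below 0 (51.1% of all genes).

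Hspa1a, the stress-inducible HSP70, had the largest log2 FC of the family on D0, 0.86, with an adjusted p of 0.681, and this value came from a single spot. The gene was read by 2 probes. One lies in the coding region (rn4, chr20:3956838-3956897, plus strand), and its 60 bases are shown because this spot alone set the value of the gene.
Hspa1a coding probe: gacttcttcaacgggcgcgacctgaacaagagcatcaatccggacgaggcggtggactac

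On exposed rat 3 of D0 this probe read 15.77 on the normalized log2 scale, whereas its other 22 arrays lay between 5.28 and 8.51. The spot was not marked as an outlier by the scanner software. On the same array the probe nearer the 3′ end read 11.45, where exposed rats ranged from 10.93 to 11.60 and control rats from 11.04 to 11.90. From that probe alone, an alternative added after the spot was seen, the log2 FC was -0.02 (-0.52 to 0.47, adjusted p = 0.996) on D0 and -0.24 (-0.72 to 0.23, adjusted p = 0.795) on D28. Leaving out exposed rat 3 of D0 gave 0.03 on D0.

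**Figure D2:**
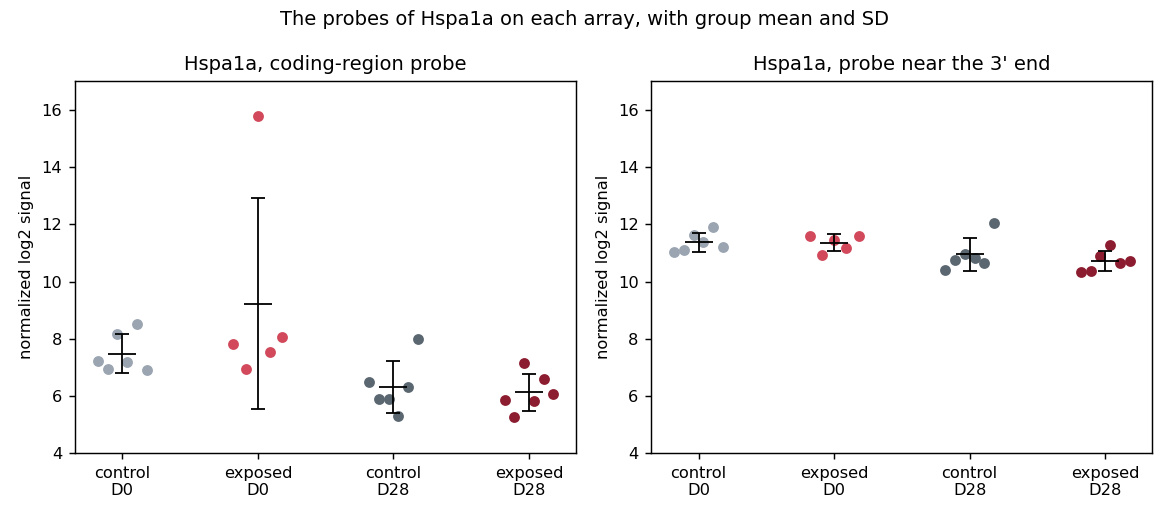
Normalized log2 signal of the probes of Hspa1a on each of the 23 arrays, with the mean and SD of each group. In the coding-region probe (left) 1 exposed array of D0 stands at 15.77 above all others, while in the probe near the 3′ end (right) the exposed and control arrays overlap on both days.

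Hsph1 (HSP105), the inducible HSP110, was the member of this class with the largest log2 FC on D28. Control rats of D0 ranged from 7.78 to 8.50 with a median of 8.06, and exposed rats read 7.73, 7.92, 8.19, 8.24 and 8.28. Control rats of D28 ranged from 7.72 to 8.29 with a median of 8.26, and exposed rats from 7.14 to 8.50 with a median of 7.37. On D0 the groups overlapped fully. On D28, 5 of 6 control rats were above 5 of 6 exposed rats, while control rat 4 was low at 7.72 and exposed rat 4 was the highest of all at 8.50. The log2 FC was -0.02 (adjusted p = 0.997) on D0 and -0.61 (95% interval -1.004 to -0.207, adjusted p = 0.146) on D28, which did not pass the test. Without exposed rat 4 of D28 it was -0.80 (adjusted p = 0.013) and would have been a DEG. Without control rat 4 of D28, the only array on its slide, it was -0.69 (adjusted p = 0.0971). Within the 3 slides that held both groups of D28, the exposed rats were lower in 3 of 3, by 0.28 to 1.02.

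Hspa12a, a distant relative of HSP70, fell on D0. Control rats of D0 ranged from 8.57 to 8.88 with a median of 8.69, and exposed rats read 7.97, 8.01, 8.16, 8.36 and 8.52, all below the controls. The log2 FC was -0.49 ± 0.13 (SE, adjusted p = 0.0413), a FC of 0.71. Leaving out 1 array at a time, it passed in 12 of 23 fits (adjusted p 0.0166 to 0.128). On D28 both groups were low, from 7.86 to 8.42 in control and from 7.62 to 8.30 in exposed rats, and the log2 FC was -0.16 (adjusted p = 0.723). The difference between the days was 0.33 (95% interval -0.04 to 0.70, adjusted p = 1.00) and did not pass the test. Control rats of D28 themselves read lower than those of D0 without overlap, with a log2 difference of -0.45 (adjusted p = 0.0970). Hspa12b, its relative of the vascular endothelium, had log2 FCs of -0.20 (adjusted p = 0.477) and -0.24 (adjusted p = 0.306).

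No member of the HSP90 class or of the mitochondrial chaperonin passed the test on either day. Hsp90ab1, the constitutive form, had a log2 FC of 0.07 (-0.22 to 0.36, adjusted p = 0.973) on D0 and -0.11 (-0.39 to 0.17, adjusted p = 0.855) on D28. Hsp90aa1, the inducible form, had 0.00 (adjusted p = 0.999) and -0.22 (adjusted p = 0.748). These values average 3 probes, of which 1 lies on the strand opposite to the others and was dim (log2 signals 4.20 to 6.07). That probe gave 0.18 on D0 and -0.18 on D28. The others gave -0.13 and -0.04 on D0, and -0.27 and -0.20 on D28. Hsp90b1 (GRP94) of the ER had -0.02 (adjusted p = 0.996) and -0.19 (adjusted p = 0.566). Hspd1 (HSP60) and its lid Hspe1 (HSP10) had narrow intervals. The 95% interval of Hspd1 ran from -0.11 to 0.19 on D0 and from -0.13 to 0.16 on D28, and that of Hspe1 from -0.26 to 0.07 and from -0.29 to 0.02.

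Members named Hspb with a number were classed by that name alone as small heat shock proteins, Hspb11 among them. All 8 measured had a log2 FC below 0 on D0 (50.1% of all genes), with a median of -0.31. On D28, 7 of 8 did (51.1% of all genes), with a median of -0.16. Hspb3, Hspb7 and Hspb9 were dim, well above background on 21, 21 and 20 of the 23 arrays. One of the 8 passed the adjusted p on D0 and 2 on D28. Hspb2, a small heat shock protein of heart and skeletal muscle that lies beside Cryab in the genome, fell on both days. Control rats of D0 ranged from 10.9977 to 11.47 with a median of 11.21, and exposed rats read 10.70, 10.70, 10.82, 10.87 and 11.01. Control rats of D28 ranged from 11.04 to 11.36 (median 11.28) and exposed rats from 10.67 to 11.13 (median 10.84). On each day the highest exposed rat just exceeded the lowest control rat. The log2 FC was -0.41 ± 0.10 (SE, adjusted p = 0.0233) on D0 and -0.40 ± 0.09 (SE, adjusted p = 0.0356) on D28, both a FC near 0.75, and -0.41 over both days (adjusted p = 0.000671). Both probes of the gene gave values below 0 on each day, between -0.52 and -0.30. Leaving out 1 array at a time, the call held in 18 of 23 fits on D0, in 14 of 23 on D28 (adjusted p up to 0.0791) and in 23 of 23 over both days.

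Hspb1 (HSP27), the heat-inducible small heat shock protein that guards actin filaments, fell on D28. Control rats ranged from 12.95 to 13.66 with a median of 13.22 and exposed rats from 12.55 to 13.08 with a median of 12.70, so that the groups overlapped by 1 exposed and 2 control rats. The log2 FC was -0.51 ± 0.13 (SE, adjusted p = 0.0467), a FC of 0.70. It passed in 6 of 23 fits that left out 1 array (adjusted p 0.0278 to 0.120). On D0 control rats ranged from 13.16 to 13.74 and exposed rats read 12.95, 13.04, 13.13, 13.26 and 13.34, with a log2 FC of -0.27 (adjusted p = 0.426). Averaged over both days the log2 FC was -0.39 (adjusted p = 0.00961), and all 23 such fits passed.

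Hspb8 (HSP22), the partner of Bag3 in the removal of damaged filaments, had -0.42 (adjusted p = 0.230) on D0 and -0.01 (adjusted p = 0.992) on D28. Hspb3, named for the largest value of its class on D0, had -0.57 (95% interval -1.19 to 0.04, adjusted p = 0.479). Cryab, a small heat shock protein whose name the rule did not take, fell on D0 by 0.29 on the log2 scale (adjusted p = 0.0460) and had -0.20 (adjusted p = 0.235) on D28. Averaged over both days its log2 FC was -0.24 (adjusted p = 0.00595).

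Markers of striated muscle were read on the same arrays. Rodent lungs hold cardiac muscle in the walls of pulmonary veins. Of 17 measured markers of cardiac and skeletal muscle, 17 had a log2 FC below 0 on D0, with 1 past the adjusted p (Myl7, the atrial myosin light chain, which fell by 0.60), and 9 of 17 on D28, where Myl7, Tnnt2, Tnni3 and Actc1 passed, with log2 FCs of -0.63, -0.56, -0.49 and -0.43. The mean log2 signal of the list ranged from 7.25 to 9.36 in control and from 6.81 to 7.28 in exposed rats of D0, and from 6.97 to 7.56 and 6.78 to 9.04 on D28. Across the 23 arrays the deviation of Hspb2 from its group mean had a Pearson r of -0.24 with that of the list. Control rat 5 of D0 and exposed rat 1 of D28 were the 2 arrays farthest from the median of the list. Without them r was -0.141. The counts of markers below 0 were not repeated without these arrays, so they can rest on single rats. With Myl7 alone r was -0.128 over the 23 arrays. The part of muscle in the group difference was not tested. Of 9 smooth muscle markers none passed the adjusted p on D0 or D28, and Smtn passed over both days with a log2 FC of -0.25.

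**Figure D3:**
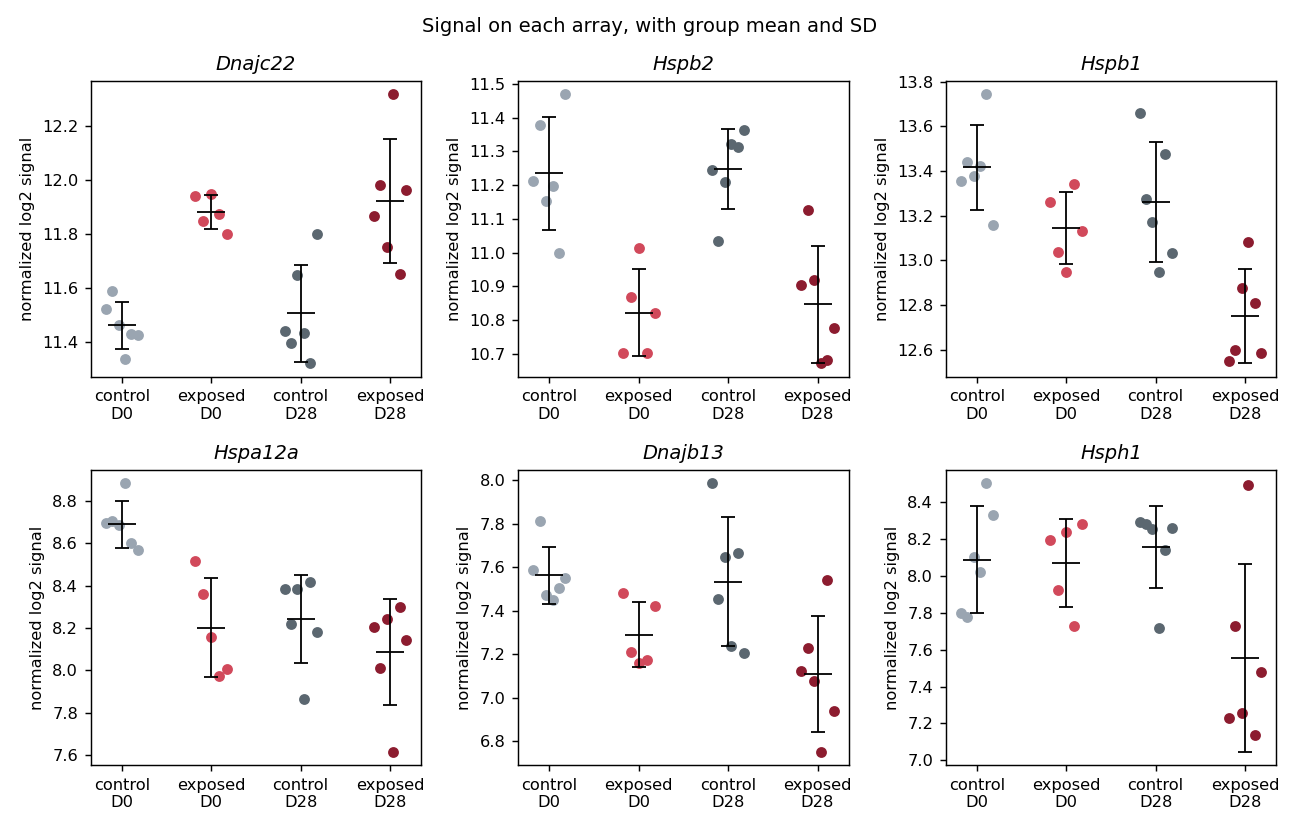
Normalized log2 signal on each array for the 5 members past the adjusted p and for Hsph1, with the mean and SD of each group; the vertical axis differs between panels. The group means of exposed rats lie above those of controls for Dnajc22 and below them for Hspb2 on both days, with some overlap of single rats for Hspb2 and for Dnajc22 on D28, and the top exposed point of Hsph1 on D28, 8.50, is rat 4.

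Dnajc22 was the only member that rose with an adjusted p below 0.05. It is a J-domain protein with several membrane passes, the mammalian form of the fly gene wurst, which acts in clathrin-mediated uptake. Control rats of D0 ranged from 11.34 to 11.59 with a median of 11.45, and exposed rats read 11.80, 11.85, 11.88, 11.94 and 11.95, all above the controls. Control rats of D28 ranged from 11.32 to 11.80 (median 11.44) and exposed rats from 11.65 to 12.32 (median 11.91), so that 1 control rat reached into the range of the exposed rats. The log2 FC was 0.42 ± 0.10 (SE, adjusted p = 0.0279) on D0 and 0.42 ± 0.10 (SE, adjusted p = 0.0384) on D28, a FC of 1.34 and 1.33. The difference between the days was -0.01 (95% interval -0.30 to 0.29). Exposed rats were higher in 4 of 4 slides on D0, by 0.35 to 0.52, and in 3 of 3 slides on D28, by 0.18 to 0.62. Leaving out 1 array at a time, the call held in 15 of 23 fits on D0 (adjusted p up to 0.0692), in 11 of 23 on D28 (up to 0.0900) and in 23 of 23 over both days.

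The other 27 members of the Dnajc class did not pass the test on either day. Dnajc5b and Dnajc6 aside, their log2 FCs ranged from -0.38 (Dnajc28, D0) to 0.24 (Dnajc5g, D28, well above background on 8 of 12 arrays).

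Dnajb13, a protein of the radial spokes of cilia and sperm tails, fell when both days were averaged (log2 FC -0.35, adjusted p = 0.0292). Control rats of D0 ranged from 7.45 to 7.81 with a median of 7.53, and exposed rats read 7.16, 7.18, 7.21, 7.42 and 7.48. Control rats of D28 ranged from 7.20 to 7.99 (median 7.55) and exposed rats from 6.75 to 7.54 (median 7.10). On D0 the top 1 of 5 exposed rats reached into the range of the controls, and on D28 the groups overlapped widely. The call over both days held in 15 of 23 fits that left out 1 array (adjusted p up to 0.0581). On single days the log2 FC was -0.27 (adjusted p = 0.471) and -0.42 (adjusted p = 0.139). Of 14 markers of ciliated cells, 14 had a log2 FC below 0 on D0 and 14 on D28, with none past the adjusted p on a single day and 3 over both days (Rsph1, Ccdc39 and Tppp3, log2 FCs -0.43, -0.39 and -0.35). The mean log2 signal of the markers ranged from 8.58 to 8.75 in control and 8.07 to 8.53 in exposed rats of D0, and from 8.40 to 8.88 and 8.14 to 8.51 on D28. Across the 23 arrays the deviation of Dnajb13 from its group mean had a Pearson r of 0.719 (Spearman rho 0.677) with that of the markers, and of 0.692 without the 2 arrays farthest from the median. The part of the ciliated cells in the change of Dnajb13 was not tested.

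The J-domain partners of the inducible HSP70 did not pass the test. Dnajb1 (HSP40) had log2 FCs of -0.14 (-0.37 to 0.10, adjusted p = 0.802) on D0 and -0.17 (-0.39 to 0.05, adjusted p = 0.621) on D28. Dnaja1 had 0.04 (adjusted p = 0.989) and -0.15 (adjusted p = 0.668), and Dnaja4, with the largest values of its class, -0.16 (adjusted p = 0.841) and -0.24 (adjusted p = 0.571). Dnajb11, a J-domain protein of the ER, had 0.17 (adjusted p = 0.489) on D0 with exposed rats all above controls, and 0.15 (adjusted p = 0.551) on D28. Dnajb11, Dnajc22, Hspa12a and Dnajc1 were the 4 of 85 members whose groups did not overlap on D0 (4.3% of all genes), and no member had such groups on D28 (1.22% of all genes). Dnajb5, with the largest value of its class on D0, had -0.38 (adjusted p = 0.741).

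The transcription factor of the response, Hsf1, had log2 FCs of -0.01 (-0.19 to 0.16, adjusted p = 0.996) and -0.08 (-0.24 to 0.08, adjusted p = 0.798). The nucleotide exchange factor Bag3, itself induced through HSF1, had -0.01 (-0.19 to 0.17, adjusted p = 0.996) and 0.01 (-0.16 to 0.18, adjusted p = 0.992). All 7 BAG members had a 95% interval within 1.5-fold on both days. Bag5l1 (-0.09 on D0) and Bag1 (-0.10 on D28) had the largest values of that class. Hsf5, the largest of the Hsf class, was well above background on 1 array of D28 in each group and is given no FC. Hspbp1 (-0.18 on D0) and Hspg2 (-0.14 on D28) had the largest values among the 4 genes with related names.

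Members with a heat shock element of 2 units in the window, 16 in number, had a median log2 FC of -0.06 on D0 and -0.10 on D28, beside -0.04 and -0.04 for 51 members without it. None of the 16 passed the adjusted p on D0, and 1, Hspb1, on D28. Dnajc22, Hspb2 and Hspa12a, the members past the adjusted p on D0, had no promoter to search and are in neither group. Of the members past it on D28, only Hspb1 had a promoter to search. The counts of passes therefore do not compare members with and without the element. The 3 members with the ER stress element had log2 FCs from -0.02 to 0.22 on D0 and from -0.19 to 0.02 on D28.

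Signals were also compared from rat to rat within groups. The deviation of Hsph1 from its group mean was compared with that of all other genes over the 23 arrays; Hspa1b, the other marker of the family, could not be used. Of all 23029 genes compared, Hsp90b1 was the most alike (Pearson r = 0.825, Spearman rho 0.757). Hsp90aa1 (0.707), Hspa5 (0.705), Hsp90ab1 (0.689), Dnajc22 (0.542) and Hspa4 (0.516) followed among members, and 6 of 84 members (7.14%) had an r above 0.5 against 4.34% of all genes. At the other end, Dnajc9 (-0.582), Dnajb9 (-0.533), Dnaja3 (-0.512) and Dnajc6 (-0.507) had an r below -0.5, which is 4 of 84 members (4.76%) against 3.504% of all genes. The median r was 0.02 over the members and -0.013 over all genes. Without exposed rat 4 and control rat 4 of D28, the 2 arrays farthest from the median of Hsph1, r was 0.689 for Hsp90b1, 0.536 for Hsp90aa1, 0.518 for Hsp90ab1, 0.453 for Hspa4, 0.425 for Hspa5 and 0.246 for Dnajc22. The arrays share RNA and hybridization within a rat, and no test is given. Outside the family the 10 genes most alike were P4ha1 (0.819), a hydroxylase of collagen in the ER, then Olr828, LOC102556447, Polr3c, Npr3, Olr1064, Zfp329, LOC102551236, Rflnb and Wwc1 (0.752 to 0.788).

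**Figure D4:**
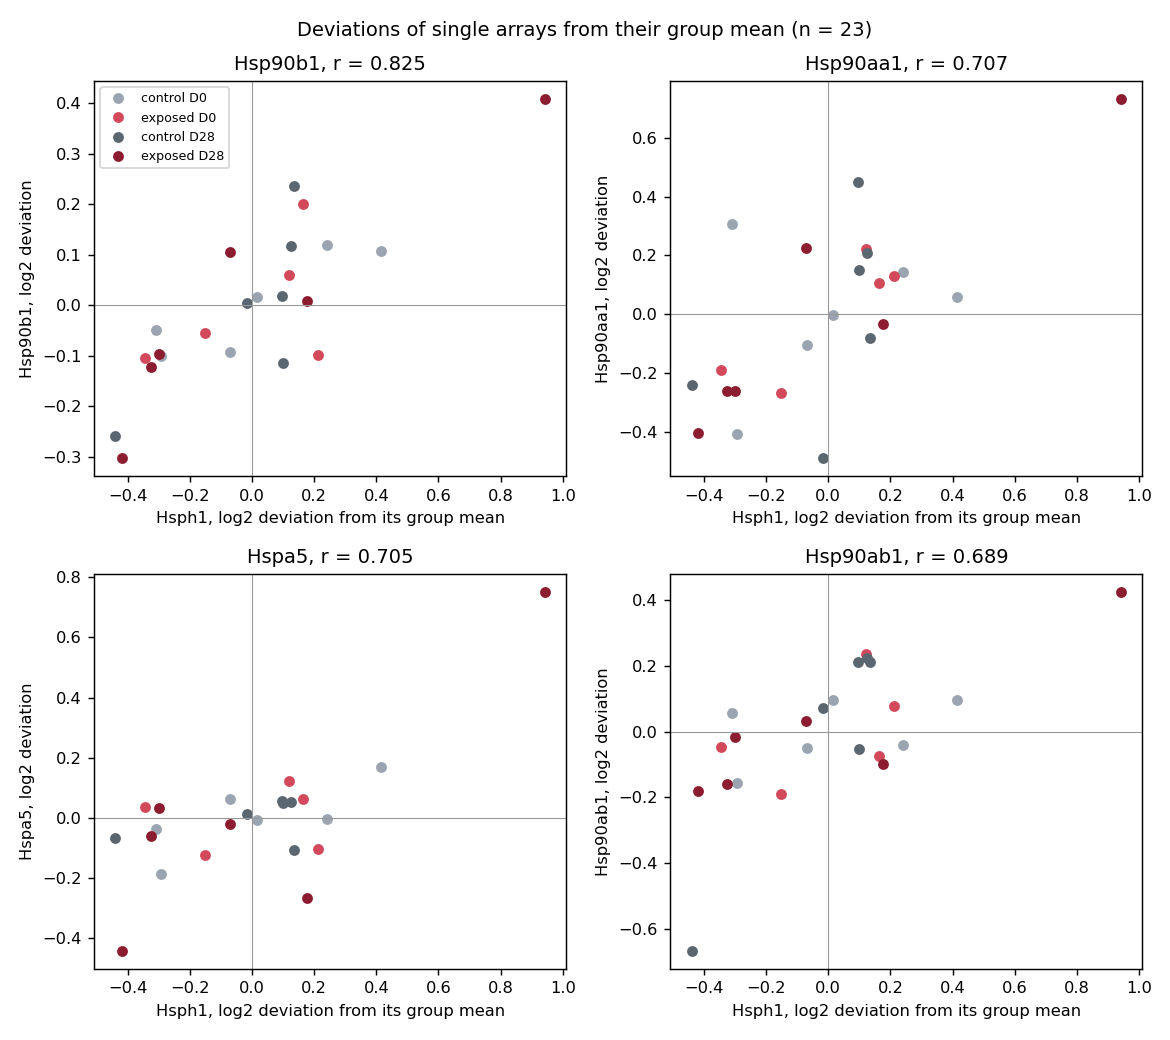
Deviation of Hsph1 from its group mean (horizontal axis, log2) against that of Hsp90b1, Hsp90aa1, Hspa5 and Hsp90ab1 (vertical axes, log2), 1 point per array, coloured by group. Exposed rat 4 of D28 is the point at the upper right of each panel, and without it and control rat 4 of D28 the Pearson r of Hsp90b1 falls from 0.825 to 0.689.

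Between the days, filtered-air rats gave the reading of the family without TiO2. No member was a DEG (0.608% of all genes) and none passed the adjusted p (0.877% of all genes), while 14 of 85 had an unadjusted p below 0.05 (13.3% of all genes). Hspb8 came nearest, with values from 8.16 to 8.64 (median 8.54) on D0 and from 7.49 to 8.35 (median 7.69) on D28. Its log2 difference was -0.63 (95% interval -0.95 to -0.31, adjusted p = 0.0571), and it passed both limits in 3 of the alternative settings and without any 1 of 5 arrays. These were control rat 6 of D0, control rats 1 and 5 of D28, and exposed rats 3 and 4 of D28. Clock genes differed widely between the same groups: 12 of 17 passed the adjusted p, among them Dbp with a log2 difference of -4.13 and Npas2 with 2.78, and 4 of 17 passed for TiO2 on D0 and 8 of 17 on D28. The hour of sampling is not in the labels, and its part in the values of the family was not tested.

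Few other genes of proteostasis passed the test. Of 14 subunits of the CCT chaperonin and prefoldin, none passed the adjusted p on D0 or D28. Of 18 partners of HSP70 and HSP90, 1 passed on D28: Fkbp5, a co-chaperone of HSP90 that glucocorticoids induce, with mean log2 signals of 12.36 in control and 11.34 in exposed rats (log2 FC -1.02, adjusted p = 0.0266). Of 15 other heat-induced genes, Cryab alone passed on D0 and none on D28. Over both days Hmox1, the heme oxygenase of oxidative stress, rose by 0.62 and Sqstm1 by 0.24 on the log2 scale. Cryab passed over both days as well and fell by 0.24. Of 27 genes of the unfolded protein response, Derl3, of the ER degradation pathway, rose on D0 (log2 FC 0.49, adjusted p = 0.0320) and none passed on D28. A log2 FC below 0 was found in 7 of these 27 on D0 and in 8 on D28. For the 18 partners of HSP70 and HSP90 it was found in 14 and in 16. Over all genes the shares were 50.1% and 51.1%. Cirbp and Rbm3, RNA-binding proteins that cold induces, had log2 FCs of -0.16 and -0.26 on D0 and of 0.03 and 0.46 on D28, with no adjusted p below 0.05.

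Of 21 immediate early genes, Fosl1 and Nr4a3 rose and Klf4 fell on D0, and none passed on D28. Fosl1 was near background in control rats of D0 (mean log2 signal 1.998, beside 3.986 in exposed rats), so no FC is given. In cell markers, Siglec1 and Cd68 rose among 9 macrophage markers on D0 and Cd68 on D28. None of 10 neutrophil markers passed on either day, while Ngp passed over both days and was lower in exposed rats. Its mean signal in exposed rats was dim and near background, so no FC is given and no fall in neutrophils is inferred. In lavage fluid the paper reports a higher percentage of neutrophils in exposed elderly rats on D0 and D28. Of 13 markers of epithelium and endothelium, Sftpd rose on D0, and of 6 erythroid markers Ahsp fell on D0; none passed on D28 in either list.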

How the data were processed

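The authors deposited the scanner output of Agilent Feature Extraction (11.0.1.1 on 22 arrays, 12.0.1.1 on 1) with background-corrected intensities of each spot, not normalized between arrays, and a table of intensities that they had quantile normalized. Gene names were those of the array read with the later version. Control spots were left out, outlier spots were set missing, and a probe needed, on 5 or more arrays, a signal over the 95th percentile of 308 negative controls (40418 of 45598 probes; 118 of 121 of the family). Log2 processed signals of the spots were quantile normalized, then averaged to probes and from probes to genes. The 29 genes with a missing value were dropped. One limma model (3.58.1, R 4.3.3) with 4 group means and 19 residual degrees of freedom gave every contrast, with Benjamini-Hochberg adjustment over 23030 genes. The share of probes well above background was 69.5% to 77.9% per array, the 23 arrays lay on 5 slides with 1 scan day each, and the median correlation of an array with its group was 0.969 to 0.985. The number of arrays limits the precision, and replicates were separate rats. Since the signal of a probe depends on its sequence, levels were not compared between genes. The fit was tested on simulated data.

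The members and lists were chosen with earlier results of these data known. Genes named were 16 fixed members, every member past the adjusted p in any contrast, the member of each class with the largest log2 FC on either day, and the 10 genes outside the family most like Hsph1. In the lists, up to 4 genes past the adjusted p were named. A gene not well above background in a group is given no FC. Promoters came from RefSeq (GRCr8), while positions of probes are in rn4, the build of the scanner files, without conversion. Alternatives were 75th percentile scaling, normexp (offset 50), the deposited table, other filters, 1 probe per gene, slide or replicate number as a block, the arrays of 1 day, no limit on FC, and leaving out each array.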

Additional observations from a re-analysis of the deposited data

Results flagged for a closer look

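For 28 named members, the highest and the lowest rat of each group were compared with the gap expected within a group of 5 or 6 (Dixon's ratio), in 112 groups of values. For independent groups not chosen by their values, chance flags about 1 in 20, and here 10 were flagged. These groups share arrays, and some members were named for a large FC. The number flagged therefore cannot be set against that rate. Control rat 4 of D28, alone on its slide and read with the later software version, was the lowest of its group for Hsph1 (ratio 0.737; log2 signal 7.72 beside 8.14), Hsp90ab1 (0.688; 14.06 beside 14.67) and Hspd1 (0.634; 10.68 beside 10.96). Exposed rat 4 of D28 was the highest for Hsp90ab1 (0.648; 15.04 beside 14.64). Hspa1a was high on exposed rat 3 of D0 (0.811; 13.61 beside 9.82), from the spot described above, and on control rat 6 of D28 (0.783; 10.02 beside 8.49). Hspb3 was low on control rat 3 of D28 (0.678), and Hspg2 was low on control rat 1 of D0 (0.676). Dnajc5b, not well above background on any array, was high on control rat 6 (0.883) and exposed rat 3 (0.714) of D0. No member passed the test of a difference between the effects on D0 and D28.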

How the results depend on the processing

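No member was a DEG on D0 or D28, over both days or in the difference between days under 8 or 9 alternative settings each that kept the limit on FC. Dropping that limit gave 3 on D0, 3 on D28 and 5 over both days. Between the control groups 1 member, Hspb8, was a DEG in the deposited table, with probes well above background in a whole group and with the replicate block. Leaving out 1 array gave 0 to 1 DEG on D28 (Hsph1) and 0 to 1 between the control groups (Hspb8). By adjusted p alone it gave 0 to 3 members on D0, 0 to 3 on D28 and 3 to 7 over both days, against 3, 3 and 5 with all arrays. With the slide as a block, 8 members passed over both days. With only the arrays of that day none passed on D28, with fewer arrays to estimate the spread. The replicate numbers do not mark shared rats, and same-numbered rats of D0 had correlations of their deviations from -0.225 to -0.117, those of D28 from -0.174 to 0.455. With the replicate number as a block none passed the adjusted p on D28 and the count of D0 kept within 1.5-fold. Over both days Dnajc22, Hspb2 and Hspb1 passed in all 23 fits that left out 1 array, Hspa12a in 18 and Dnajb13 in 15. On single days every one of the 6 calls was lost in some of these fits. Of 411 values of single genes under alternatives, 325 kept their side of the threshold, 85 lost it, 1 gained it and none changed direction past it; the cause was not tested. Signal over background limits Hspa1b and Dnajb7 (not well above background), and of the 85 tested members 10 were well above background on only some arrays and 2 (Dnajc5b and Dnajc6) on none.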
